A study of Mus musculus with 10 samples.

Results

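Transcripts of circadian clock genes were measured by bulk RNA sequencing in the neuroretina of mice, which is the layered nerve tissue that detects light. The set holds 10 genes: the activators Clock and Npas2, the period genes Per1, Per2 and Per3, the cryptochromes Cry1 and Cry2, the nuclear receptors Nr1d1 and Nr1d2, and the output factor Dbp. They were chosen by symbol, through the Ensembl identifiers of the count table, and all 10 of 57186 genes in the table were found. Of these, 9 were among the 11499 genes with enough counts to be tested, and Npas2 was not.

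All eyes were from female C57BL6/JRj mice and were injected intravitreally, that is into the clear gel filling the eyeball, 14 days before the neuroretina was taken. The CNP group (5 libraries) received 1 µL of hg-C3N4, graphitic carbon nitride nanoparticles, at 1 mg/mL in phosphate-buffered saline. The PBS group (5 libraries) received the saline, so that both groups carry the effect of the injection and neither shows an uninjected eye. The labels give no age, no hour of the day at which tissue was taken and no light schedule. They number the libraries from 2 to 20 and do not say what the number stands for. Mice are counted in the design text for CNP (5) but eyes for PBS (5), and whether each library is a separate animal is not stated further, so p-values measure the spread between these libraries, which may be partly technical.

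The clock is a feedback loop of transcription. CLOCK, or its close relative NPAS2, pairs with BMAL1 (gene Arntl), binds E-box elements and switches on the Per, Cry, Nr1d1, Nr1d2 and Dbp genes. PER and CRY proteins return to the nucleus and repress that pair, NR1D1 and NR1D2 (REV-ERB alpha and beta) repress Arntl and Cry1 among others through ROR elements, and DBP acts on D-box elements. The retina holds its own clock, spread over several neuron types, which governs among other things dopamine release and photoreceptor coupling.

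Total counts ran from 3328518 to 5428697 per library, at which 3 counts correspond to 0.553 to 0.901 CPM, the unit in which counts are scaled to library size. Markers of rods, cones, bipolar, amacrine and ganglion cells were all detected, as in the labelled tissue. Markers of the pigment epithelium, a layer outside the neuroretina, summed to between 447 and 2339 CPM. Markers of the lens, which also lies outside it, summed to 514 to 9111 CPM in PBS and 618 to 4680 CPM in CNP. With CNP all 8 tested lens markers had a log2 fold change below 0 (median -1.32) and 0 were called, and their part in the clock genes' values was not tested. The libraries numbered up to 10 (PBS 2, 6 and 10, CNP 4 and 8) stood apart from those numbered above 10 (PBS 14 and 18, CNP 12, 16 and 20). The first set had 5005470 ± 512652 counts (SD, n = 5) and 2.10% ± 0.168 mitochondrial counts, and the second had 3858010 ± 439159 counts and 3.79% ± 0.526 mitochondrial counts. Both sets hold both treatments but not evenly, since PBS has 3 libraries up to 10 and CNP has 2, and each tested clock gene's difference between CNP and PBS is therefore also given within the sets.

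Promoter sequence shows which of the clock's own binding elements lie near the starts of the genes the results turn on. RefSeq promoter windows on GRCm38.p6, 250 bases before to 50 after each start, were at hand for 9 of the 10 genes (12 windows), with Per2 not among them. They were searched on both strands for the E-box CACGTG, the E-prime box CACGTT, the D-box (TTATGTAA or TTACGTAA), the ROR element (TAGGTCA or TGGGTCA) and the cAMP response element TGACGTCA; none of the matches shown overlaps another. Over all 32851 promoters in the table, 7.15% hold the E-box, 4.68% the E-prime box, 1.06% the D-box, 6.45% the ROR element and 1.79% the cAMP response element. The 250 bases before the start are shown for the 5 genes with a match, 5′ to 3′ along the gene, with matches in capitals. Per1 (its first window of 2), Cry2, Nr1d1 and Cry1 are shown for their E-boxes or E-prime boxes, and Per3 for its D-boxes.
Per1, GRCm38 chr11:69098699-69098948, plus strand: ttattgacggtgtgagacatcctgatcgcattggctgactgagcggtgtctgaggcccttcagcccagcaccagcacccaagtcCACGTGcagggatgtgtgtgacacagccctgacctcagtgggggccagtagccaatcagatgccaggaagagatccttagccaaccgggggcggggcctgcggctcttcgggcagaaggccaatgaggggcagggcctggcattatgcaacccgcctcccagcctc
Cry2, GRCm38 chr2:92434070-92434319, minus strand: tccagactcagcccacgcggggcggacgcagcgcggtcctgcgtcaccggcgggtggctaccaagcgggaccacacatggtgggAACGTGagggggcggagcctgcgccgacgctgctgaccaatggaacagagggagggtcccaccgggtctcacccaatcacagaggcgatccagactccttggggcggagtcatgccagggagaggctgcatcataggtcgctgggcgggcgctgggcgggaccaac
Nr1d1, GRCm38 chr11:98775378-98775627, minus strand: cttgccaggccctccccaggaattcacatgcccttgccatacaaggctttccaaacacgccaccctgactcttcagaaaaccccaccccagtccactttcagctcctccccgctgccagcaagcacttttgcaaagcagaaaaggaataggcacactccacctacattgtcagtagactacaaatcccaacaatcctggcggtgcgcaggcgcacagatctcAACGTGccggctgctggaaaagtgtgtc
Cry1, GRCm38 chr10:85185055-85185304, minus strand: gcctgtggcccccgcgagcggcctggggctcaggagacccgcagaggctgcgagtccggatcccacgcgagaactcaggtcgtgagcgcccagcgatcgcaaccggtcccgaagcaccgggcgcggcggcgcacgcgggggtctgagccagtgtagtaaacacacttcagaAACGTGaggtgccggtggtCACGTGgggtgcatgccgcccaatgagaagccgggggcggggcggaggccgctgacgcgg
Per3, GRCm38 chr4:151044666-151044915, minus strand: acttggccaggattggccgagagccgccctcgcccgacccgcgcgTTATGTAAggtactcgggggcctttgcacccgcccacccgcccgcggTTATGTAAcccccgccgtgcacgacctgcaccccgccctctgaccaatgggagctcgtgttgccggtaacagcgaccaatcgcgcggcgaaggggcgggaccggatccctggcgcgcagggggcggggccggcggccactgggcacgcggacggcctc

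The Per1 sequence holds an E-box 166 bases before the start, and Cry1 holds an E-box 60 bases before the start and an E-prime box at 79. Cry2 has an E-prime box at 166 and Nr1d1 has one at 28. Per3 differs from these in holding 2 D-boxes, at 205 and 158 bases before the start, and no E-box of either form. The windows of Clock, Npas2, Nr1d2 and Dbp and the second window of Per1 hold none of these letters, which says nothing of elements outside the window or in other spellings. The matches are a description of the reference sequence and do not show binding.

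Abundance was compared between genes as CPM per kilobase of exon, although the sources used here do not give how far these counts grow with transcript length. If they do not grow with it, the division by length itself shapes the order. Without that division, mean CPM over the 10 libraries was highest for Dbp (208) and Nr1d1 (102). Cry2 (82.0) and Cry1 (81.9) were then level, with Nr1d2 at 76.3, and Per3 (32.9) stood above Per1 (23.4). Dbp, a PAR bZIP output factor, was the most abundant with 69.5 ± 12.5 CPM per kilobase (SD, n = 10 libraries). Nr1d1 followed with 33.2 ± 7.27 and Cry1 with 24.5 ± 1.42. Nr1d2 (14.1 ± 1.30) and Cry2 (12.98 ± 4.59) came next and overlapped: Nr1d2 was the higher in 7 of 10 libraries. Per1 (4.16 ± 1.09) and Per3 (3.43 ± 1.03) likewise overlapped, with Per1 higher in 7 of 10. The activator Clock stood at 0.828 ± 0.164 and Per2 at 0.593 ± 0.140, with Clock higher in 8 of 10 libraries. Every other neighbour in this order was higher in 10 of 10 libraries, although the ranges of Nr1d1 and Cry1 also touched.

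Npas2, which can stand in for Clock as the partner of BMAL1, was at the limit of detection. It had 4, 0, 3, 0 and 1 counts in PBS 2, 6, 10, 14 and 18 and 1, 3, 3, 0 and 0 counts in CNP 4, 8, 12, 16 and 20, which sums to 15. No difference in Npas2 between groups was detectable at this depth. Per2 was also thinly covered, with 159 counts in all and between 7 and 26 per library, whereas Dbp had 9616 counts in all.

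**Figure D1:**
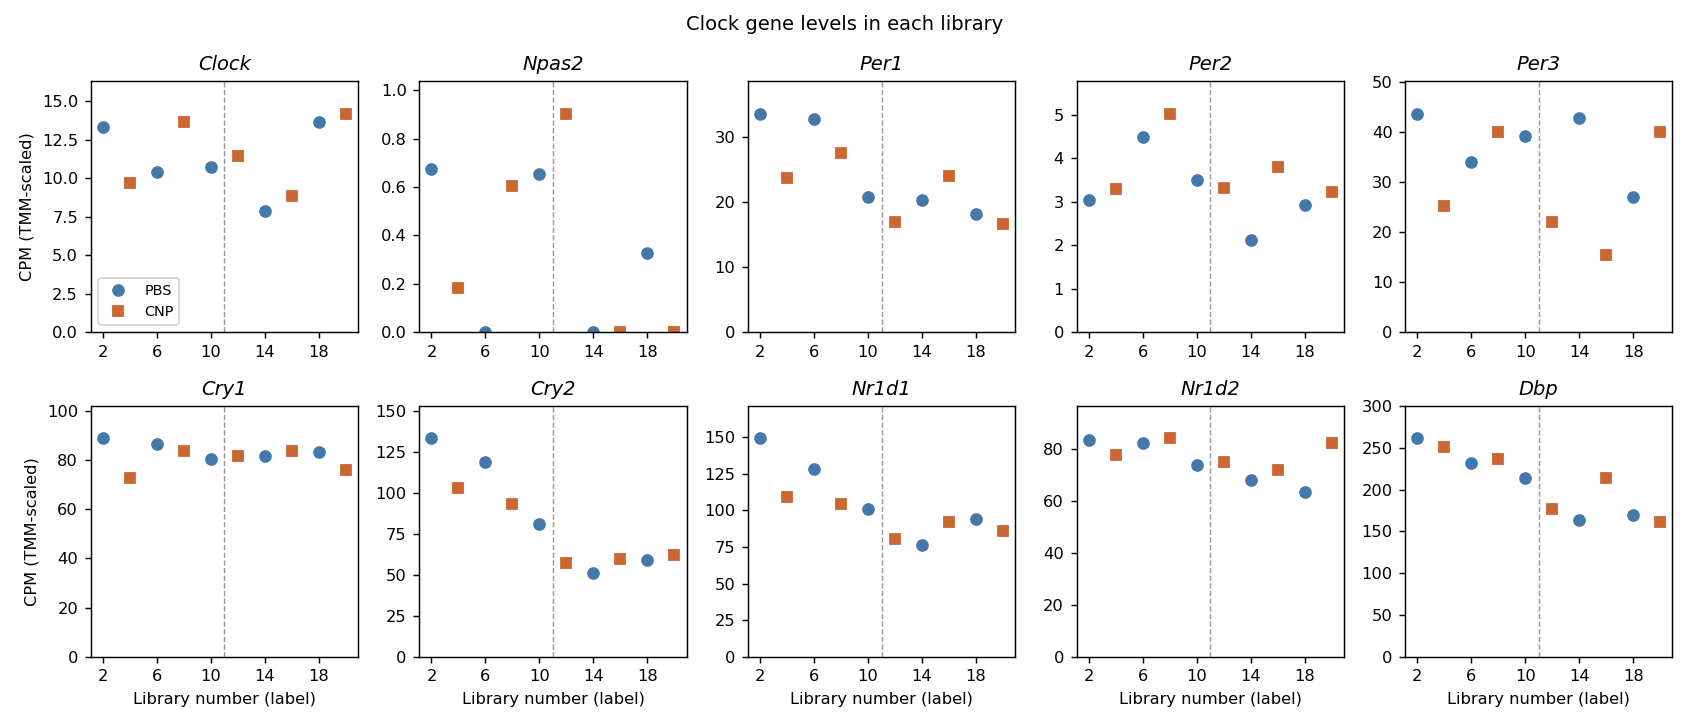
TMM-scaled CPM (vertical axis) of the 10 clock genes against library number, 1 point per library (blue circles PBS, orange squares CNP), with a dashed line between libraries numbered up to 10 and above 10. Cry2 and Nr1d1 sit higher in every library numbered up to 10 than in any numbered above 10, Dbp does so with CNP 16 level with PBS 10, while Cry1 stays between 72.6 and 88.8 CPM throughout.

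The genes differed in how much they moved between libraries. From here on levels are CPM scaled by TMM, a correction for library composition, and each gene is compared only with itself. Cry1, a strong repressor of the CLOCK pair, was the steadiest: it ran from 72.6 to 88.8 CPM, a highest-to-lowest ratio of 1.22. Its SD of log2 CPM over the 10 libraries was 0.09, at percentile 4 among the 500 genes nearest to it in abundance. Its paralogue Cry2 was among the most variable, from 51.3 to 134 CPM, with a ratio of 2.60, an SD of 0.49 and percentile 95.6. Per3 was as variable as Cry2, with an SD of 0.49 at percentile 94.4. Per1 (0.36, percentile 84.2) and Nr1d1 (0.30, percentile 80.6) were above most genes of like abundance, and Dbp (0.26, percentile 71.8) was moderately so. Clock (0.28, percentile 47.8), Nr1d2 (0.14, percentile 28.8) and Per2 (0.30, percentile 15.8) were not.

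Counting error alone gives a chi-square per degree of freedom near 1. It was 0.839 for Per2, so the spread of Per2 over libraries was no larger than its counts allow. It was 1.46 for Cry1 and 1.83 for Clock, below the median of 2.51 over all tested genes. It reached 45.2 for Cry2, 28.3 for Dbp and 23.0 for Nr1d1. Their differences between libraries are well beyond counting error if each count is a separate molecule, which the sources used here do not give.

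CNP against PBS left the clock genes without a detected difference. None of the 9 tested genes passed an adjusted p of 0.05 in edgeR's quasi-likelihood test with Benjamini-Hochberg adjustment (each adjusted p = 0.9997). Over all 11499 genes 0% passed as well, and at an unadjusted p under 0.05 edgeR gave 137 genes, which is 1.19%, and 0 of the 9. DESeq2 and limma-voom each called 0 genes after adjustment, and at an unadjusted p under 0.05 they gave 86 and 142 genes, again with 0 of the 9. The PBS and CNP libraries overlapped for all 9 genes, against 0.287% of all genes whose groups did not overlap. In sign, 3 genes were higher and 6 lower with CNP, with a median log2 fold change of -0.08 beside -0.0036 over all genes.

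Per3, a period gene that is not required for rhythmicity in mice, had the smallest unadjusted p of the set (0.126, edgeR). Its levels were 43.7, 33.9, 39.3, 42.9 and 27.0 CPM in PBS 2, 6, 10, 14 and 18, and 25.2, 40.0, 22.0, 15.5 and 40.0 CPM in CNP 4, 8, 12, 16 and 20. CNP 4, 12 and 16 were the 3 lowest libraries, and CNP 8 and CNP 20 lay among the PBS libraries. The log2 fold change was -0.39 with a 95% interval from -0.90 to 0.12. Within the libraries numbered up to 10 the difference of mean log2 CPM was -0.28, and within those above 10 it was -0.50.

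Among the other period genes, Per1, which light and cAMP can induce directly, averaged 25.1 ± 7.41 CPM over the 5 PBS and 21.8 ± 4.81 CPM over the 5 CNP libraries (mean ± SD, as for the genes that follow). That is a log2 fold change of -0.22, with a 95% interval from -0.66 to 0.23, and it was -0.11 with the library number as a term. Within the sets the differences of mean log2 CPM were -0.15 up to 10 and -0.02 above 10. Per2, a core repressor, was at 3.21 ± 0.874 and 3.73 ± 0.758 CPM, a log2 fold change of 0.19 (-0.31 to 0.69), with differences of 0.15 and 0.40 within the sets. The Per2 interval is wide because few counts lie behind it.

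Both cryptochromes were slightly lower on average, within the spread of the libraries. Cry1 was at 84.2 ± 3.52 CPM in PBS and 79.6 ± 5.02 in CNP, a log2 fold change of -0.08 with the narrowest interval of the set (-0.26 to 0.09), and differences of -0.13 and -0.04 within the sets of library numbers. Cry2 was at 88.9 ± 36.3 and 75.1 ± 21.5 CPM, a log2 fold change of -0.25 with the widest interval (-0.82 to 0.33). Its sign depended on which libraries were set against each other: the difference of mean log2 CPM was -0.15 among libraries up to 10 and 0.11 among those above 10, and with the library number as a term the log2 fold change was -0.05. Leaving out PBS 2 gave -0.06.

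The activator Clock was nearly level between treatments, at 11.2 ± 2.38 CPM in PBS and 11.6 ± 2.36 in CNP, a log2 fold change of 0.04 (-0.36 to 0.45), with differences of 0.01 up to 10 and 0.11 above 10. Nr1d1 had a log2 fold change of -0.22 (-0.58 to 0.14), which was -0.11 with the library number as a term and -0.08 without PBS 2. Its differences of mean log2 CPM within the sets were -0.22 up to 10 and 0.03 above 10. Nr1d2 had a log2 fold change of 0.07 (-0.14 to 0.28), and differences of 0.02 and 0.21 within the sets. Dbp, at 208.2 ± 41.2 and 207.8 ± 38.2 CPM, had a log2 fold change of -0.0032 (-0.34 to 0.34), and differences of 0.05 and 0.13 within the sets. These intervals leave room for changes of the sizes they span, so that equal levels are not shown.

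**Figure D2:**
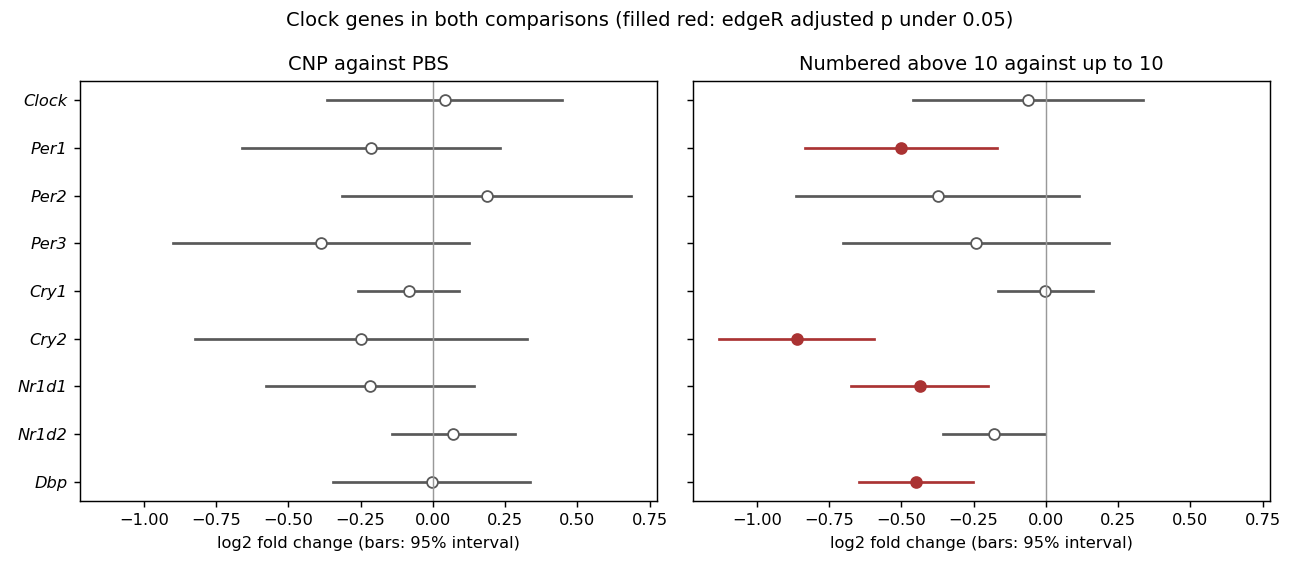
Log2 fold change (horizontal axis) with its 95% interval (lines) for the 9 tested clock genes, from edgeR over 10 libraries, for CNP against PBS and for libraries numbered above 10 against up to 10; filled red points passed an adjusted p of 0.05. All intervals for CNP cross 0, while in the comparison by library number those of Cry2, Dbp, Nr1d1 and Per1 lie below 0, with estimates from -0.86 for Cry2 to -0.44 for Nr1d1, and that of Nr1d2 ends at -0.0031.

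A larger difference followed the library number. The labels give no cut at 10, and earlier results of these data were known, so p-values at this cut are descriptive. With treatment as a term in the edgeR fit, Cry2, Dbp, Nr1d1 and Per1 were lower in the libraries numbered above 10, and none was higher. That is 4 of the 9 genes lower, where 16.7% of all tested genes were called lower and 14.4% higher. All 9 log2 fold changes were below 0, with a median of -0.37 beside -0.02 over all genes. The interaction of library number with treatment was called for 0 genes, and each of the 9 had an adjusted p of 0.999 (edgeR), so no difference between PBS and CNP in this respect was detected.

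Cry2, the less potent of the cryptochromes as a repressor, changed most. Its level was 134, 103, 119, 93.5 and 81.2 CPM in the libraries numbered 2, 4, 6, 8 and 10, and 57.2, 51.3, 59.5, 59.2 and 62.4 CPM in those numbered 12 to 20. Every library above 10 lay below every library up to 10. The means were 106 ± 20.7 and 57.9 ± 4.13 CPM (SD, n = 5 each), 45.0% lower, with a log2 fold change of -0.86 (SE 0.13, adjusted p = 0.000455). By its p-value Cry2 stood at rank 146 of all tested genes. The direction was the same in each treatment, with a difference of mean log2 CPM of -0.98 in PBS and -0.71 in CNP.

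Dbp, a direct target of the CLOCK pair, stood at 261, 251, 231, 236 and 214 CPM in libraries 2 to 10 and at 177, 164, 214, 170 and 161 CPM in libraries 12 to 20. The sets were separate in name only, since CNP 16 (213.848 CPM) all but equalled PBS 10 (213.867 CPM). The means were 239 ± 18.3 and 177 ± 21.3 CPM, with a log2 fold change of -0.45 (SE 0.09, adjusted p = 0.00242). The difference was -0.49 in PBS and -0.41 in CNP.

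Nr1d1, the repressor of Arntl, stood at 149, 109, 128, 104 and 101 CPM in libraries 2 to 10. In libraries 12 to 20 it stood at 80.7, 76.1, 91.9, 94.0 and 86.3 CPM. The sets did not overlap, and the log2 fold change was -0.44 (SE 0.11, adjusted p = 0.0087). Over all genes, 10.8% had sets that did not overlap with the higher-numbered set lower, and Cry2, Dbp and Nr1d1 were the members among them.

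Per1 ran from 33.6, 23.8, 32.7, 27.5 and 20.7 CPM in libraries 2 to 10 to 16.9, 20.2, 24.1, 18.2 and 16.7 CPM in libraries 12 to 20. These sets overlapped, since CNP 16 was above PBS 10 and CNP 4. The log2 fold change was -0.50 (SE 0.16, adjusted p = 0.0245). This call ended when any one of PBS 2, PBS 6, PBS 14, PBS 18, CNP 8 or CNP 12 was left out, with adjusted p from 0.0539 to 0.0783.

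The other 5 members were not called. Nr1d2, the paralogue of Nr1d1, was at -0.18 on the log2 scale, and its 95% interval, from -0.35 to -0.0031, excluded 0 before adjustment (adjusted p = 0.113). Per2 was at -0.37 (adjusted p = 0.247), Per3 at -0.24 (adjusted p = 0.426) and Clock at -0.06 (adjusted p = 0.838). Cry1 was at -0.0020 with an interval of -0.17 to 0.16, and its means were 82.5 ± 6.40 and 81.3 ± 3.05 CPM. The sign of so small a value turned with the scaling: it was 0.02 with DESeq2 size factors and -0.22 with library totals alone, a scaling that moves the median of all genes to -0.23.

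Cell type markers moved with the library number too. In the libraries above 10, rod markers were called higher for 8 of 9 genes and summed to 55183 to 73859 CPM, against 41726 to 48928 CPM in the others. Cone markers were higher for 5 of 6 (4824 to 5624 against 3815 to 4126 CPM), and pigment epithelium markers for 6 of the 6 tested of 9 (1351 to 2339 against 447 to 1195 CPM). Amacrine markers were lower for 6 of 6 and summed to 261 to 383 CPM against 464 to 779 CPM. Ganglion and bipolar markers were each lower for 5 of 6, but their sums overlapped between the sets. Ganglion markers summed to 1325 to 1791 against 1500 to 2028 CPM, and bipolar markers to 1029 to 1529 against 1278 to 1477 CPM. Nefl (log2 fold change 0.17) and Pcp2 (0.01) were the markers not called. Mueller glia markers were lower for 2 of 5, and 0 of 5 microglia, 0 of 8 lens and 0 of 3 vascular markers were called. No listed marker was at 0 in every library.

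Levels of Cry2 over the 10 libraries ran with the amacrine marker score (r = 0.97), the bipolar score (0.97) and the ganglion score (0.94), and against the pigment epithelium score (-0.92). These are descriptions over libraries that share the same depth and composition differences, as Cry2 also had r = 0.88 with the log2 total count. Nr1d1 was much like Cry2, with r = 0.92 with the amacrine, 0.94 with the bipolar, 0.86 with the ganglion and -0.93 with the pigment epithelium score. Dbp had r = 0.96 with the ganglion score, whereas Cry1 had no r beyond 0.41 in size with any measure examined. In bulk tissue, fewer cells of a type and less RNA per cell cannot be told apart. The part of cell makeup, depth and mitochondrial share in the difference by library number was not separated. With the rod score, the pigment epithelium score or the log2 total count as a further term, chosen after the data were seen, 0 of the 9 genes were called. In that order of terms Cry2 had log2 fold changes of -0.70, -0.46 and -0.48, and Dbp of -0.23, -0.30 and -0.28. Nr1d1 had -0.20, -0.08 and -0.16, and Per1 had 0.02, -0.01 and -0.07, values nearer to 0 than without the terms. Among members not called, Nr1d2 was also nearer to 0 with each term. Per3 was farther from 0, at -1.06 with the rod score and -0.39 with the pigment epithelium score, against -0.24 without them. With the log2 total count Clock (-0.26) and Per2 (-0.48) were farther from 0 too. Over all genes 0, 0 and 1 were called in these fits. The rod score did not overlap between the sets (10.5 to 10.7 up to 10, 10.9 to 11.2 above 10). The pigment epithelium score did not either (3.86 to 5.03 and 5.26 to 6.13). Fits with either score can therefore hardly tell it apart from the library number. How the hour of sampling ran with the library number is not known from the labels.

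Ratios of counts within a library do not depend on scaling, and were chosen after the values were seen, so they carry no test. Libraries 2 to 10 had 1.5, 1.42, 1.38, 1.12 and 1.01 counts of Cry2 per count of Cry1. Libraries 12 to 20 had 0.699, 0.627, 0.712, 0.711 and 0.820. The ratio was higher in every library up to 10 than in any above 10. Being taken on raw counts, not per kilobase, it does not show which of these paralogues is the more abundant. Counts of Dbp per count of Cry1 were 2.94, 3.46, 2.67, 2.82 and 2.66 in the first set and 2.16, 2.0, 2.56, 2.04 and 2.12 in the second. The ratio of Nr1d1 to Nr1d2 was less clearly divided: it was 1.79, 1.41, 1.55, 1.24 and 1.36 in libraries 2 to 10 and 1.07, 1.12, 1.28, 1.48 and 1.05 in libraries 12 to 20, where CNP 16 and PBS 18 lay inside the range of the first set.

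**Figure D3:**
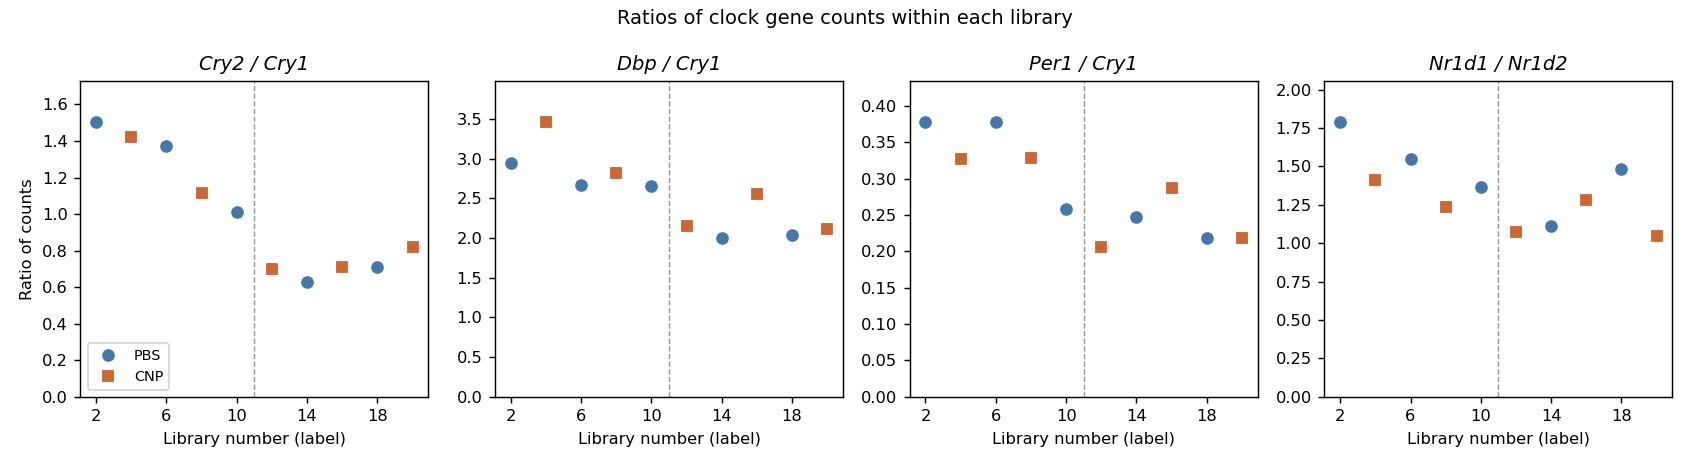
Ratio of raw counts within each library (vertical axis) against library number (horizontal axis), for 4 pairs of clock genes, 1 point per library (blue circles PBS, orange squares CNP). Cry2 per Cry1 drops from between 1.01 and 1.5 in libraries up to 10 to between 0.627 and 0.820 above 10.

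Whether the clock genes rose and fell together between libraries was read from Pearson's r of log2 CPM over the 10 libraries for all 36 pairs of the 9 tested members. Of these, 34 were above 0 and the median r was 0.36, beside 0.001 over 66107751 pairs of all tested genes. An r of 0.8 or more was reached by 16.7% of the member pairs and 3.12% of all pairs. After adjustment over the 36 pairs, 6 passed a two-sided permutation test at 0.05. They are the 6 pairs among the same 4 genes, Per1, Cry2, Nr1d1 and Dbp, that were lower in libraries above 10, so that difference enters each of these r values, and r is also given after each set was centred on its own mean.

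Cry2 and Nr1d1 were the closest pair, with r = 0.95 (rho = 0.95, permutation p = 2e-05, adjusted p = 0.00072). Without PBS 2 and PBS 6, the 2 libraries farthest from the median of Cry2, r was 0.91. After that centring, r was 0.91 (adjusted permutation p = 0.0325), so these genes also moved together within the sets. Both genes also ran with the amacrine and bipolar scores, and the part of cell makeup in their r was not tested. Among all tested genes, Cry2 stood at rank 23 by r with Nr1d1, and Nr1d1 at rank 169 by r with Cry2.

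The other 5 pairs each had an adjusted permutation p of 0.0172. Cry2 and Dbp had r = 0.88 (rho 0.83), which fell to 0.46 after centring on the sets. Per1 had r = 0.86 with Nr1d1 (rho 0.81), 0.86 with Dbp (rho 0.84) and 0.85 with Cry2 (rho 0.76), and after centring these were 0.67, 0.64 and 0.63. Nr1d1 and Dbp had r = 0.84 (rho 0.88) and 0.50 after centring. After centring none of these 5 passed the adjusted permutation test (adjusted p from 0.474 to 0.507). Without PBS 2 and PBS 6, r stayed at 0.85 for Per1 with Dbp and for Nr1d1 with Dbp and at 0.87 for Cry2 with Dbp, and was 0.64 for Per1 with Nr1d1 and with Cry2. The last pair of relations therefore rests in part on those libraries. Centred on the sets, the median r over the 36 pairs was 0.20, and 1 pair (2.78%) reached 0.8 against 0.954% of all gene pairs. PBS 2 decides the number of pairs that pass: without it, 1 passed.

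The lowest r was -0.15 for Per2 with Per3, followed by -0.04 for Clock with Per1. Clock with Dbp was at 0.0048, and Cry1 with Nr1d2 at 0.05. Per3, although a target of the same activators, had r = 0.02 with Dbp, and -0.71 after centring on the sets (adjusted permutation p = 0.474).

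**Figure D4:**
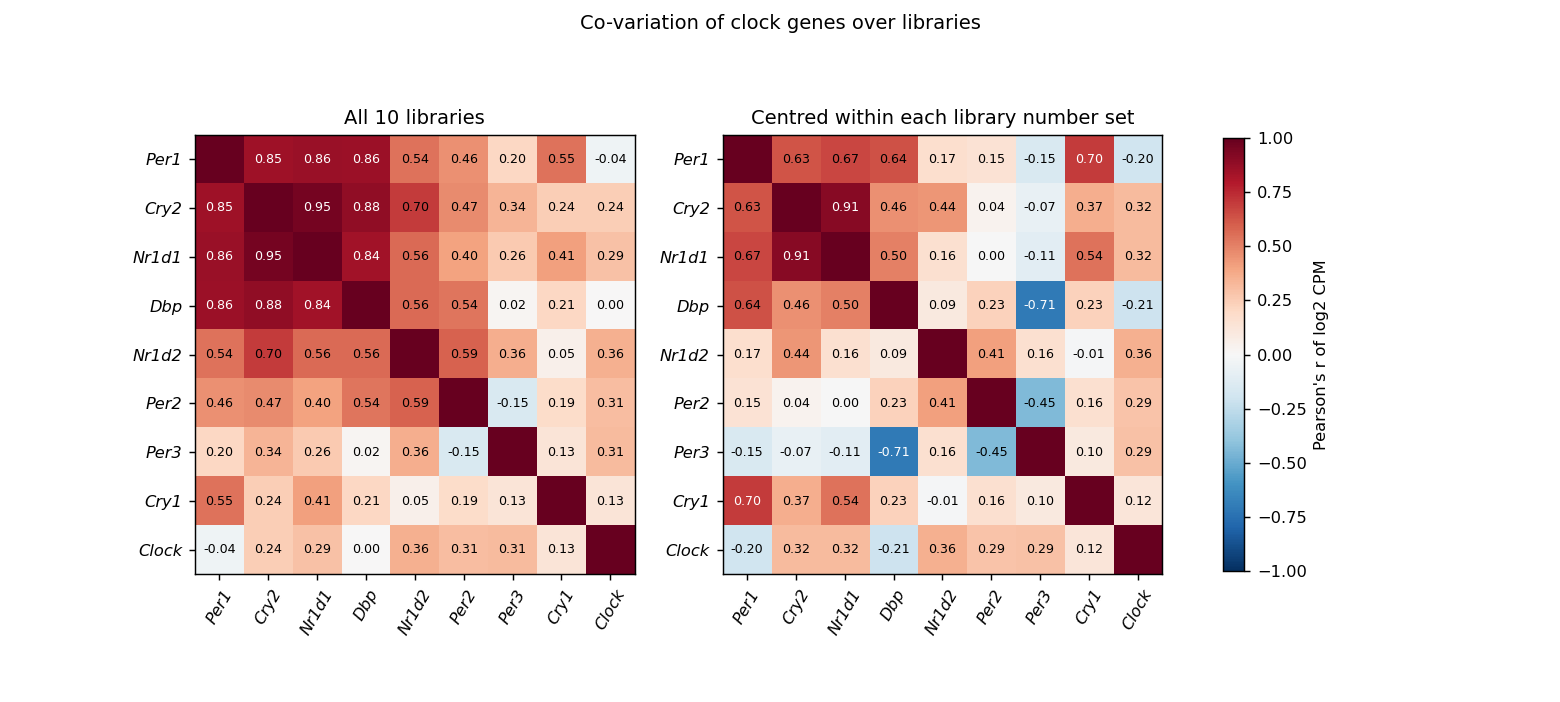
Pearson's r of log2 CPM over 10 libraries for each pair of the 9 tested clock genes, over all libraries (left) and after centring within each library number set (right), with r printed in each cell. On the left Per1, Cry2, Nr1d1 and Dbp form a block of r from 0.84 to 0.95, and on the right Cry2 with Nr1d1 stays at 0.91 while Per3 with Dbp reads -0.71.

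Per3 instead ran with Bhlhe41 (DEC2), a repressor that competes for E-boxes. Bhlhe41 was at 414, 225, 432, 487 and 333 CPM in PBS 2, 6, 10, 14 and 18 and at 244, 471, 232, 120 and 446 CPM in CNP 4, 8, 12, 16 and 20. CNP 16 was the lowest library for both genes, and CNP 4 and CNP 12 were low in both. Over the 10 libraries r was 0.91, and 0.93 after centring on the sets, so the relation does not follow the library number. It was picked from the other clock genes after the values were seen and has no p. Bhlhe41 stood at rank 21 of all genes by r with Per3.

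**Figure D5:**
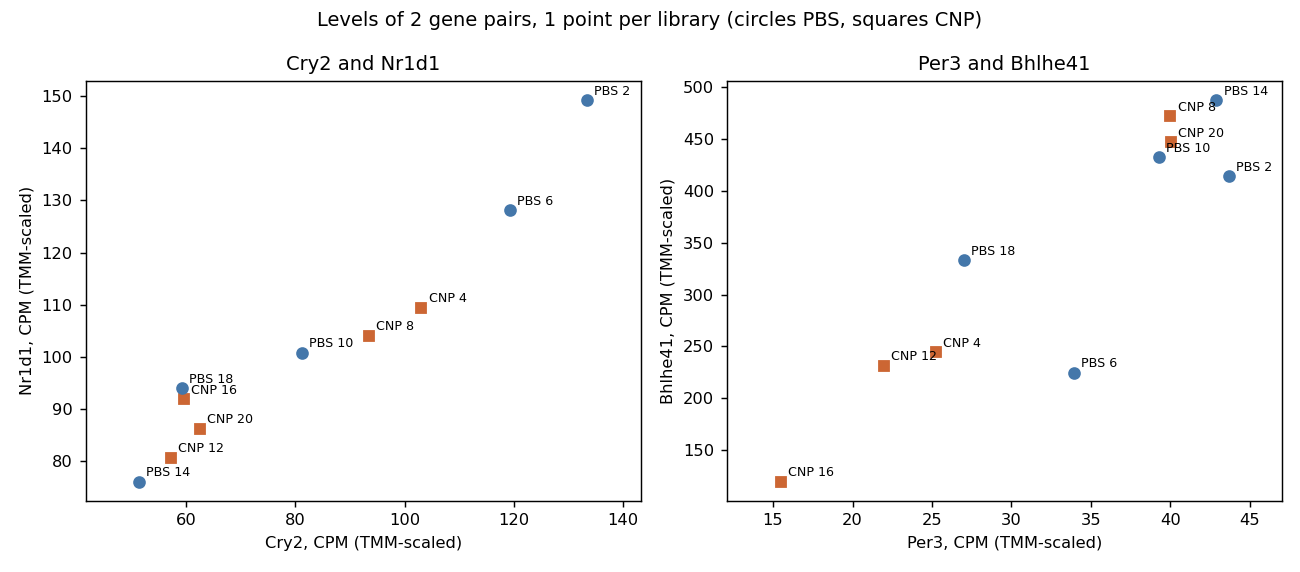
TMM-scaled CPM of one gene (vertical axis) against another (horizontal axis) in the 10 libraries, each point labelled with its library (blue circles PBS, orange squares CNP). In Nr1d1 against Cry2 (r = 0.95 on the log2 scale) the libraries numbered up to 10 hold the upper end, while in Bhlhe41 against Per3 (r = 0.91) both sets are mixed.

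Other genes of the loop were read from lists, beside the same shares of all genes. Of 11 further clock transcription factors, 10 were tested, and 0 were called with CNP, where the median log2 fold change was -0.07. By library number, 4 of 10 were lower and 0 higher in the set above 10. These were Bhlhe40 (DEC1, an E-box repressor) at a log2 fold change of -0.68 (adjusted p = 0.0024, edgeR), Ciart (CHRONO, a repressor of the CLOCK pair) at -0.63 (adjusted p = 0.00094), Hlf at -0.62 (adjusted p = 0.00643) and Tef at -0.41 (adjusted p = 0.00813). Hlf and Tef are the PAR bZIP relatives of Dbp. Over the libraries, r with Dbp was 0.96 for Ciart, 0.94 for Bhlhe40, 0.91 for Tef and 0.74 for Hlf. After centring on the sets these were 0.84, 0.80, 0.68 and 0.31. Hlf had 0.88 with Cry2 and 0.83 with Nr1d2, and 0.77 and 0.70 after centring.

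Arntl, which encodes the shared partner of CLOCK and NPAS2, stood at 96.3, 105, 98.0, 92.1 and 95 CPM in PBS 2, 6, 10, 14 and 18 and at 85.2, 95.3, 113, 116 and 116 CPM in CNP 4, 8, 12, 16 and 20. The 3 CNP libraries above 10 were its highest. Its log2 fold change by library number was 0.13 (adjusted p = 0.30, edgeR), which did not pass.

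Of 9 tested clock kinases, ubiquitin ligases and partners, 0 were called with CNP (median -0.04). By library number Csnk2a1, a catalytic subunit of casein kinase 2, was lower at a log2 fold change of -0.48 (adjusted p = 0.00467, edgeR). The median of the list was -0.14.

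Retinal outputs of the clock were covered for 6 of 12 genes, and 0 were called with CNP (median 0.06). Drd4, the dopamine receptor of photoreceptors, was higher above 10, at a mean of 868 CPM against 542 CPM, with a log2 fold change of 0.70 (adjusted p = 0.000427, edgeR). Th, the rate-limiting enzyme of dopamine synthesis in amacrine cells, was lower, at 2.60 against 5.72 CPM (log2 fold change -1.05, adjusted p = 0.00583). Opn4, the melanopsin of light-sensing ganglion cells, was lower too, at 3.73 against 7.74 CPM (-1.10, adjusted p = 0.00181). These 3 genes mark different cell types, and their directions are those of the photoreceptor, amacrine and ganglion cell markers. Of the melatonin pathway, Aanat had 1 count in all libraries together and Asmt and Mtnr1b had 0.

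Among 8 immediate early genes that respond to cAMP or light, 0 were called with CNP (median -0.01), and by library number Dusp1 alone was called, lower at -0.71 (adjusted p = 0.00139, edgeR). The list had a median of -0.30. Among 6 tested glucocorticoid-responsive genes, which follow the daily hormone rhythm, 0 were called with CNP. By library number Sgk1 (0.33, adjusted p = 0.00878) and Mt2 (0.39, adjusted p = 0.0462) were higher and Tsc22d3 (-0.45, adjusted p = 0.00465) was lower, with a list median of -0.05. The list thus had calls in both directions.

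The genes most like each member over the 10 libraries, taken as the 3 with the highest r among all tested genes, held none of the listed clock genes. They were 4931406P16Rik, Zfp292 and Cdk12 for Clock (r from 0.94 to 0.95), Babam2, Polrmt and Ccdc85a for Per1 (0.96 to 0.98), and Ckap5 and Ap3m2 for Per2 (0.96 and 0.93). Per3 had Zscan26, Ppm1h and Pitpnc1 (0.95 to 0.96). Cry1 had the loosest neighbours, AW554918, Adipor2 and Nck1 (0.85 to 0.90). Sv2a, Phyhipl and Gaa each had r = 0.99 with Cry2, where Sv2a encodes a synaptic vesicle protein. Pacsin1, Sfxn1 and Lrfn2 were nearest to Nr1d1 (0.97 to 0.98), Tpp2, Casd1 and Prps2 to Nr1d2 (0.93 to 0.98), and Cacna2d3, Siae and Prelp to Dbp (0.98 to 0.99). With 10 libraries and 11499 genes such values are reached easily, and they carry no p.

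Some members share genomic ground with genes on the opposite strand, and the sources used here do not give whether counting used strand. In the GENCODE M21 annotation, exons of Nr1d1 overlap Thra over 263 bases, 8.55% of the exon length of Nr1d1, and Dbp overlaps Sphk2 over 539 bases, 18% of the length of Dbp. Thra had a log2 fold change of -0.15 by library number (adjusted p = 0.257, edgeR) and Sphk2 of -0.27 (adjusted p = 0.269), neither of which passed. Cry2 overlaps D930015M05Rik over 295 bases, a gene with 0 counts in every library. Reads from either partner in a shared stretch could not be told apart if strand was not used.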

How the data were processed

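Polyadenylated RNA from 10 neuroretinas was copied with barcoded primers carrying unique molecular identifiers and sequenced after a 10x Genomics library kit, per the labels' protocols. STAR and STARsolo with build GRCm39 are named in the submitters' processing notes; the sources used here do not give versions, annotation, strand use or collapsing of molecular identifiers, and uncollapsed counts would understate counting error. The authors deposited 1 table of raw counts per Ensembl gene, and 51880 identifiers received a symbol. IDs with no symbol held 0.881% of counts. Libraries were matched by the library name in their labels.

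Counts were filtered with filterByExpr (minimum count 10, minimum total 15), scaled by TMM and tested with the quasi-likelihood test of edgeR 4.0.16 in R 4.3.3, two-sided, adjusted by Benjamini-Hochberg over 11499 genes at 0.05, without covariates for CNP against PBS and with treatment as a term for library number. Log2 CPM used a prior count of 2. The common biological coefficient of variation was 19.1%. Correlations used 100000 permutations, and all 14400 rearrangements within sets after centring. Chi-square per degree of freedom was 3.99 or more for the 20 pairs of libraries within groups, so none was a copy of another library's counts. Whether libraries came from the same animal cannot be seen from this value. The code was tested on simulated data. Alternatives were DESeq2 1.42.0, limma-voom of limma 3.58.1, other scalings and filters, and leaving out libraries.

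All 10 genes are named. Of each other clock list up to 6 genes past the threshold are named, otherwise the 2 most abundant and the 2 with the smallest p, and for each member the 3 most like genes; some single genes this names are not reported here. For CNP, where no list gene passed, these genes are in the closing section. Arntl, Bhlhe41, Thra, Sphk2, D930015M05Rik, Aanat, Asmt and Mtnr1b were added after their values were seen. Members and lists were chosen with earlier results of these data known. Promoter sequences and coordinates are RefSeq's on GRCm38.p6, and exon lengths are from GENCODE M21.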

Additional observations from a re-analysis of the deposited data

How the results depend on the processing

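No paired analysis was run, because the labels name no animal and do not say what the library number stands for. For CNP against PBS, 0 members were called under every alternative run, leaving out each library included. Dbp, at -0.0032, turned sign with limma-voom (0.0043), with a term for numbers above 10 (0.093) or a numeric number term (0.083), and ran from -0.076 to 0.089 with each library left out, as Clock did from -0.049 to 0.12. By library number, 3 to 4 members were called with each library left out, and 4 with a numeric term, where Cry2 changed by -1.26 on the log2 scale over 18 numbers and Clock by 0.0022 per number. Alternatives chosen after the data were seen called 0 members with the pigment epithelium score, the log2 total or the rod score as a term, 2 in PBS libraries alone and 1 in CNP libraries alone, where fewer libraries were tested. Some members turned sign: Cry1 was 0.021 with DESeq2 and with its size factors, 0.0010 with limma-voom, 0.11, 0.011 and 0.25 with the 3 terms in that order, 0.045 in CNP libraries alone and -0.032 to 0.046 with each library left out. Clock was 0.11 with the pigment epithelium term and -0.19 to 0.080 with each library left out, Per2 was 0.015 and 0.49 with the pigment epithelium and rod terms, and Per1 was 0.025 with the rod term. Library totals alone called 5 members, with Nr1d2 added at -0.39 (adjusted p = 0.00603). Of the 36 pairs, 18 passed with library totals, 2 centred within treatment, 1 centred within sets and 1 to 8 with each library left out. Without the 2 libraries farthest from the median of the pair's first gene, 0 passed, and which libraries these were differed between pairs. The cause of these changes was not tested. Depth limits Per2 and Npas2 most.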

Other observations

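With CNP no gene of the other clock lists passed the threshold, and the most abundant list genes and those with the smallest p were as follows, all as log2 fold changes from edgeR with 95% intervals. Among transcription factors, Bhlhe41 was at -0.32 (-1.02 to 0.38), Arntl at 0.11 (-0.11 to 0.33) and Rorb, an activator through ROR elements that is abundant in retina, at -0.08 (-0.38 to 0.22). Among kinases and protein-turnover factors, Gsk3b was at -0.11 (-0.61 to 0.39), Csnk1a1 at 0.02 (-0.17 to 0.21), Fbxw11 at -0.10 (-0.33 to 0.13) and the deubiquitinase Usp2 at -0.14 (-0.35 to 0.08).

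Of the outputs, Drd4 was at 0.05 (-0.43 to 0.53), Th at -0.52 (-1.29 to 0.24) and Nampt, which makes an NAD precursor, at 0.13 (-0.09 to 0.35). Of the immediate early genes, Junb was at 0.11 (-0.17 to 0.39), Nr4a1 at -0.11 (-0.50 to 0.28), Btg2 at -0.04 (-0.39 to 0.31) and Egr1 at -0.03 (-0.71 to 0.65). Of the glucocorticoid-responsive genes, Fkbp5 was at -0.41 (-0.95 to 0.13), Cdkn1a at -0.17 (-0.60 to 0.26), Sgk1 at -0.02 (-0.30 to 0.27) and Tsc22d3 at -0.0020 (-0.35 to 0.35).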
